A study of Mus musculus with 2 samples.

Results

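The genes described here encode proteins that shorten or destroy messenger RNA, or that are known from resting lymphocytes. They were chosen by symbol from the gene list of the count matrices: Zfp36, Zfp36l1, Zfp36l2, Btg1, Btg2, Tob1, Pdcd4, Ypel3 and Zc3h12a. That gave 9 of the 32285 genes listed. The rule held 10 names, of which Regnase1 is not a gene symbol in the files and is the protein name of Zc3h12a. The rule itself uses no measured value, although the list was drawn up with earlier results of these data known.

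Donor T cells were sorted from the spleens of BALB/c recipients after allogeneic hematopoietic cell transplantation (allo-HCT) from C57BL/6 donors and examined by droplet scRNA-seq. In this model the recipients were lethally irradiated and given T cell-depleted bone marrow with splenic T cells of wild type donors, a setting in which donor T cells meet foreign tissue antigens and drive acute graft-versus-host disease. There were 2 libraries, 1 from day +7 and 1 from day +14, each from cells pooled over 5 spleens and sorted as CD45+, H2kb+, H2kd- and TCRβ+. The sample labels call the injected T cells naive. The study's figure captions for the scRNA-seq experiment do not, while its methods refer to a fully allogeneic model that was given naive T cells. The day was taken from the sample title, since the protocol text of both samples names day +7. The library names also carry the letters PBS, which the labels do not explain, and no cells from before transplantation or from syngeneic recipients were analysed here. With 1 library per day there is no replicate: no p-value is given, and every interval below is a 95% interval for counting error only. A difference between the days cannot be told apart from a difference between the libraries.

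ZFP36 (tristetraprolin), ZFP36L1 and ZFP36L2 are zinc finger proteins that bind AU-rich elements in 3′ untranslated regions and recruit deadenylases to cytokine and other short-lived transcripts. ZC3H12A (Regnase-1) is an endoribonuclease that cleaves stem-loops in the transcripts of activated T cells. BTG1, BTG2 and TOB1 are antiproliferative proteins that bind the CCR4-NOT deadenylase, and BTG1 and BTG2 are known to maintain T cell quiescence by promoting loss of messenger RNA. PDCD4 holds the helicase eIF4A and so restrains translation. YPEL3 belongs to the small Yippee family and is known as an inducer of growth arrest.

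In GENCODE M21 on GRCm38 they were at chr7:28376784-28380253 (Zfp36, minus strand), chr12:80107754-80113013 (Zfp36l1, minus), chr17:84183931-84187947 (Zfp36l2, minus), chr4:125118423-125127840 (Zc3h12a, minus), chr10:96617006-96622809 (Btg1, plus), chr1:134075170-134079120 (Btg2, minus), chr11:94211454-94215495 (Tob1, plus), chr19:53892231-53929860 (Pdcd4, plus) and chr7:126776955-126780514 (Ypel3, plus). The longest annotated 3′ untranslated region of each was searched on the sense strand for the ZFP36 family heptamer TATTTAT and for the longer nonamer TTATTTATT, which contains it. The heptamer was present in 4 of the 9 and the nonamer in 3. Over 21006 protein-coding genes with such a region, 27.6% held the heptamer and 7.67% the nonamer. The 3 nonamers were in the transcripts of the ZFP36 family itself, which had 3 heptamers each. Among genes with a region within 20% of the same length, the nonamer was in 4.01% for Zfp36, in 10.1% for Zfp36l1 and in 10.1% for Zfp36l2. The heptamer was in 19.4%, 38.3% and 38.1% of the same genes. It was in 42.7% at the length of Btg2 and in 60.7% at that of Btg1. For the rest it was in between 9.61% (Ypel3) and 20.4% (Zc3h12a). No heptamer was found in Btg1, Tob1, Pdcd4, Ypel3 or Zc3h12a. Of a list of 16 cytokine and activation genes kept as targets of these proteins, 9 held the heptamer and 4 the nonamer, with 8 heptamers in Tnf and 9 in Csf2. The windows below are stretches of those regions, 5′ to 3′ on the coding strand of GRCm38, shown because they hold the motif of the family in its own transcripts and in cytokine transcripts, of which Tnf and Ifng are described further on. Capitals mark every base that lies in a copy of either motif, and a match is a description of the letters, not a bound site.

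Zfp36, chr7:28376952-28376978: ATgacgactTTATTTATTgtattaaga
Zfp36l1, chr12:80108168-80108194: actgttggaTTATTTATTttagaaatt
Zfp36l2, chr17:84184915-84184941: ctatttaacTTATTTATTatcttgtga
Btg2, chr1:134077250-134077276: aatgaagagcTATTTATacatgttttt
Tnf, chr17:35199681-35199707: TTATTTATTATTTATTTATTATTTATT
Ifng, chr10:118445324-118445350: aatctaaaccTATTTATtaatatttaa
Csf2, chr11:54247325-54247351: aTATTTATTTATTTATTTATTTATTtt

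The libraries held 7355 barcodes at day +7 and 8043 at day +14, with 87124828 and 84233811 UMIs (molecules counted once each). Barcodes with 500 to 7500 detected genes and at most 15% mitochondrial UMIs were kept, which left 7179 and 7794. The median depth was 9210 UMIs per kept cell at day +7 and 8144 at day +14, and 20 barcodes occurred in both libraries. The T cell gate asked for at least 2 UMIs of the T cell receptor complex (Trac, Trbc1, Trbc2 or a Cd3 chain gene) and for less than 0.5% of UMIs on myeloid, erythroid and B cell markers. It held 6987 cells at day +7 and 7624 at day +14, or 97.3% and 97.8% of the kept cells. Summed marker levels inside the gate were 66.9 and 66.6 CPM (UMIs of the list in every 1000000) for the myeloid list, 60.9 and 18.2 CPM for the erythroid list, 132 and 51.0 CPM for the B cell list, and 6.99 and 0.728 CPM for the NK list, at day +7 and day +14. Their part in the results was not tested.

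A cell was called CD8 if either CD8 chain transcript (Cd8a, Cd8b1) was detected without Cd4, and CD4 in the opposite case. They were called cycling where 15 S phase and 18 G2/M genes together took at least 1500 CPM of the cell, and non-cycling below 500 CPM. No member is used by a gate. The gates held 1309 non-cycling and 3533 cycling CD8 cells at day +7 and 1026 and 3937 at day +14. CD4 cells were fewer, with 173 non-cycling and 215 cycling at day +7 and 246 and 237 at day +14. A level is given below as CPM of the UMIs summed over the cells of a gate. A UMI counts a molecule whatever the length of the transcript, so levels of different genes are set side by side on this scale.

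Btg1 was the most abundant of the 9 genes in T cells and Tob1 the least. Btg1 was at 179 CPM (95% interval 176 to 182) at day +7 and 281 CPM (278 to 285) at day +14. Zfp36l2 followed at 141 and 193 CPM. Btg2 was at 128 and 129 CPM, and Pdcd4 at 112 and 124 CPM. Both Btg genes, Zfp36l2 and Pdcd4 thus stood well apart from the others. Ypel3 was at 49.9 and 81.5 CPM, Zfp36 at 38.3 and 28.0 CPM, and Zfp36l1 at 32.9 and 70.0 CPM. Zc3h12a was at 10.2 and 8.87 CPM and Tob1 at 8.91 and 5.92 CPM, so that a cell carried on average 0.122 and 0.106 UMIs of them at day +7. Zc3h12a and Tob1 at day +7, and Btg2 and Pdcd4 at day +14, were neighbours whose intervals overlapped. The order of the 9 differed between the days only in Zfp36 and Zfp36l1, which changed places. Together the 9 genes took 700.1 CPM of T cell UMIs at day +7 and 921 CPM at day +14.

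**Figure D1:**
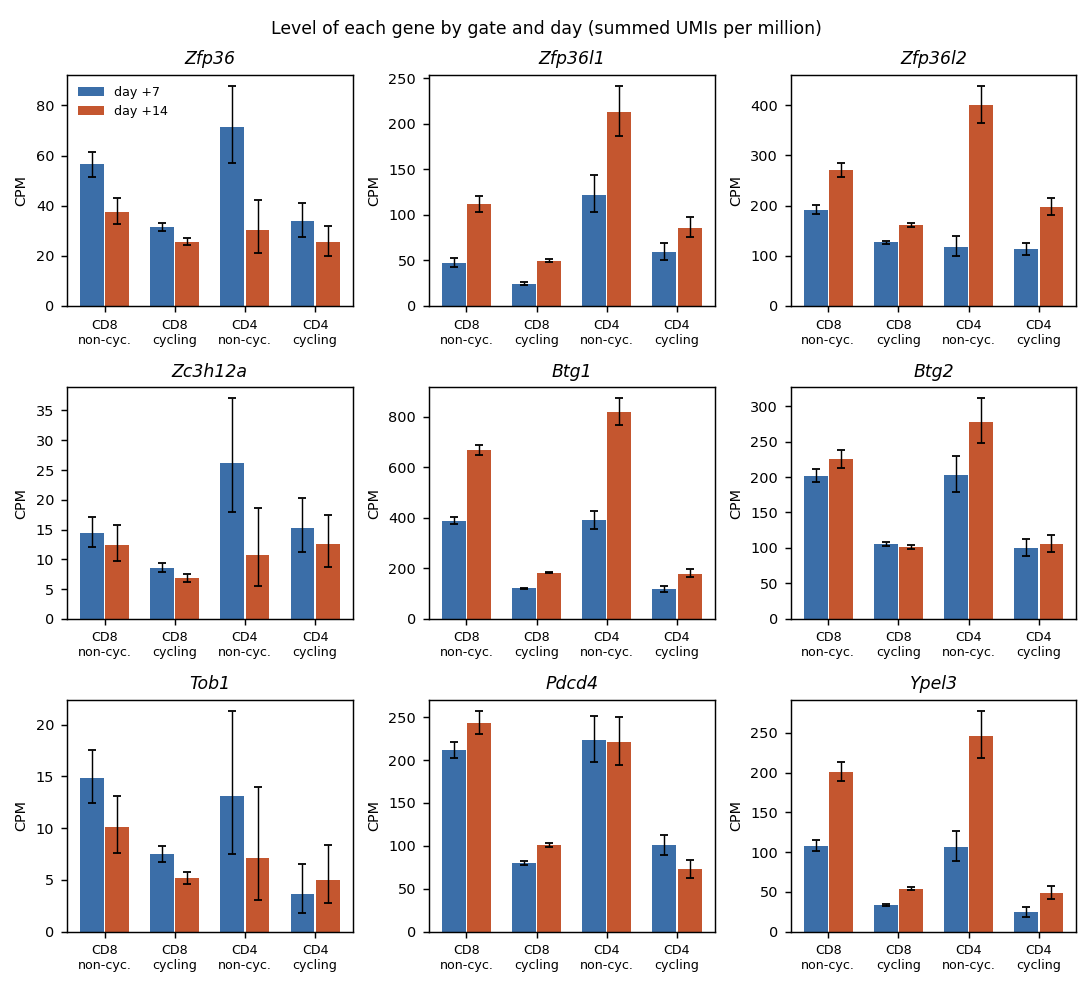
CPM of each of the 9 genes (y axis, from 0, own scale per gene) in CD8 and CD4 cells, non-cycling and cycling, at day +7 (blue) and day +14 (orange). Black bars are 95% counting intervals of 1 library each. Btg1, Btg2, Pdcd4 and Ypel3 are lower in cycling than in non-cycling cells in every panel pair, and Zfp36l2 is highest in non-cycling CD4 cells of day +14, at 400.1 CPM.

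Cycling and non-cycling cells of the same library were compared first, which sets genes known from quiescence beside the division state of the cell. In CD8 cells all 9 genes had a lower share of UMIs in cycling cells at both days, by 0.5 or more on the log2 scale, where 12% of the 6543 genes averaging 10 CPM or more were lower by that much at day +7 and 16.3% of 7058 at day +14. None of the 9 was higher, beside 21.3% and 23.3% of tested genes. The median log2 ratio over all tested genes was 0.06 and 0.03. All 9 genes passed the level of 10 CPM at day +7 and 7 did at day +14, where Tob1 and Zc3h12a were under it. At day +7 Tob1 and Zc3h12a reached that level only through the non-cycling gate, where they are high. They were at 14.8 and 14.4 CPM there, against 7.48 and 8.62 CPM in cycling cells, so their lower ratios are no independent addition to the count. The early response genes, which handling can also induce, were summed at 1607 CPM in non-cycling and 1068 CPM in cycling CD8 cells at day +7 and at 1686 and 1098 CPM at day +14, and their part in the result was not tested.

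Btg1 was at 388 CPM (376 to 401) in non-cycling and 120.5 CPM (118 to 124) in cycling CD8 cells at day +7, and at 668 CPM (646 to 689) and 183 CPM (180 to 187) at day +14. Its log2 ratio was -1.69 (-1.75 to -1.63) at day +7 and -1.87 (-1.92 to -1.81) at day +14. Ypel3 was at 108 CPM in non-cycling and 33.3 CPM in cycling cells at day +7, and at 201 and 53.7 CPM at day +14. Its ratios, -1.69 (-1.81 to -1.58) and -1.91 (-2.01 to -1.81), were as steep as those of Btg1. Of the tested genes, 0.306% had a lower ratio than Btg1 at day +7 and 0.275% had a lower one than Ypel3. Pdcd4 was at 211 and 80.1 CPM at day +7 and at 243 and 101 CPM at day +14, which gave -1.40 (-1.48 to -1.32) and -1.27 (-1.36 to -1.18).

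The remaining BTG/TOB genes were lower in cycling cells by a smaller factor than Btg1. Btg2 was at 202 CPM in non-cycling and 105 CPM in cycling CD8 cells at day +7, and at 225 and 102 CPM at day +14, with ratios of -0.94 (-1.01 to -0.86) and -1.15 (-1.23 to -1.06). Tob1 was at 14.8 and 7.48 CPM at day +7 and at 10.1 and 5.15 CPM at day +14, with ratios of -0.99 and -0.97. Its 56 UMIs in non-cycling cells of day +14 set a wide interval of -1.39 to -0.53.

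Among the RNA-binding proteins, Zfp36l1 was at 47.5 CPM in non-cycling and 24.7 CPM in cycling CD8 cells at day +7, and at 112 and 49.7 CPM at day +14. Its ratios were -0.94 (-1.10 to -0.78) and -1.17 (-1.29 to -1.04). Zfp36l2 had the ratio nearest to 0 at day +7, -0.60 (-0.67 to -0.52), from 192 CPM in non-cycling to 127 CPM in cycling cells. At day +14 the gene nearest to 0 was Zfp36, at 37.5 CPM in non-cycling and 25.6 CPM in cycling cells, with a ratio of -0.55 (-0.76 to -0.33). The nuclease gene Zc3h12a had ratios of -0.74 (-1.02 to -0.44) and -0.85 (-1.23 to -0.46).

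A share of UMIs is not a number of molecules per cell. Cycling CD8 cells held more RNA, with a mean of 15176 UMIs per cell against 6859 in non-cycling cells at day +7 and 13857 against 5409 at day +14, a log2 ratio of 1.15 and 1.36. Counted per cell, only Btg1 and Ypel3 were lower in cycling CD8 cells at both days. Btg1 went from 2.66 UMIs per non-cycling cell to 1.83 per cycling cell at day +7 and from 3.61 to 2.54 at day +14. Ypel3 went from 0.739 to 0.505 and from 1.09 to 0.744. Pdcd4 was lower per cell at day +7, at 1.45 and 1.22, and not at day +14, at 1.32 and 1.40. The other 6 genes had more UMIs per cycling cell than per non-cycling cell at both days, as Zfp36l2 did with 1.32 and 1.93 at day +7. For those 6 the lower CPM in cycling cells is a smaller gain than that of the whole transcriptome, not a smaller number of captured molecules.

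**Figure D2:**
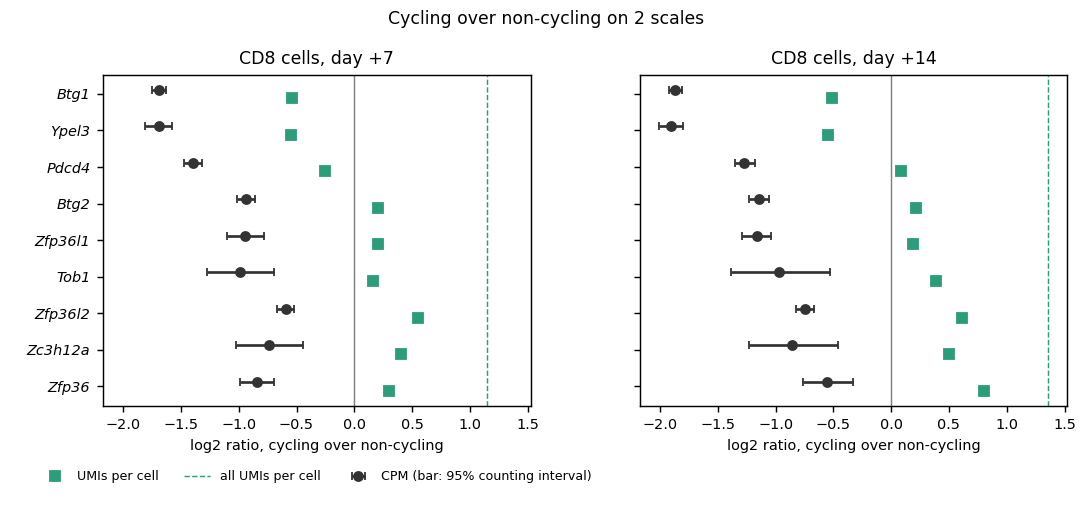
Log2 ratio of cycling over non-cycling CD8 cells (x axis) for each gene at day +7 and day +14, as CPM (black circles, bars are 95% counting intervals) and as UMIs per cell (green squares). The dashed line is the ratio of all UMIs per cell, 1.15 and 1.36. Every circle lies left of 0, whereas the squares lie left of 0 at both days only for Btg1 and Ypel3.

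Within cycling CD8 cells the levels were lowest in S phase. Cells with more S than G2/M signal had Btg1 at 89.8 CPM against 137 CPM in G2/M cells at day +7, and at 160 against 199 CPM at day +14. Btg2 was at 88.0 against 115 CPM and at 89.96 against 109 CPM. Pdcd4 was at 68.4 against 86.5 CPM and at 90.2 against 108 CPM. The same order held for all 9 genes in CD8 cells at both days. The intervals lay apart at both days for Btg1, Btg2, Pdcd4 and Zfp36l2 and overlapped at 1 or both days for the other 5. Along fixed bins of the cell cycle level, Btg1 went from 418 CPM in cells under 250 CPM of cell cycle genes to 93.5 CPM in cells between 3000 and 6000, and then stood at 133 CPM in cells above 6000, at day +7. At day +14 the same bins read 676, 151 and 191 CPM. The levels of Btg1 were thus not lowest in the cells with most cell cycle RNA. All 9 genes stood higher in the last bin than in the fifth at both days. For some the step was small, as for Ypel3 with 29.8 and 31.2 CPM at day +7, whose intervals overlapped.

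**Figure D3:**
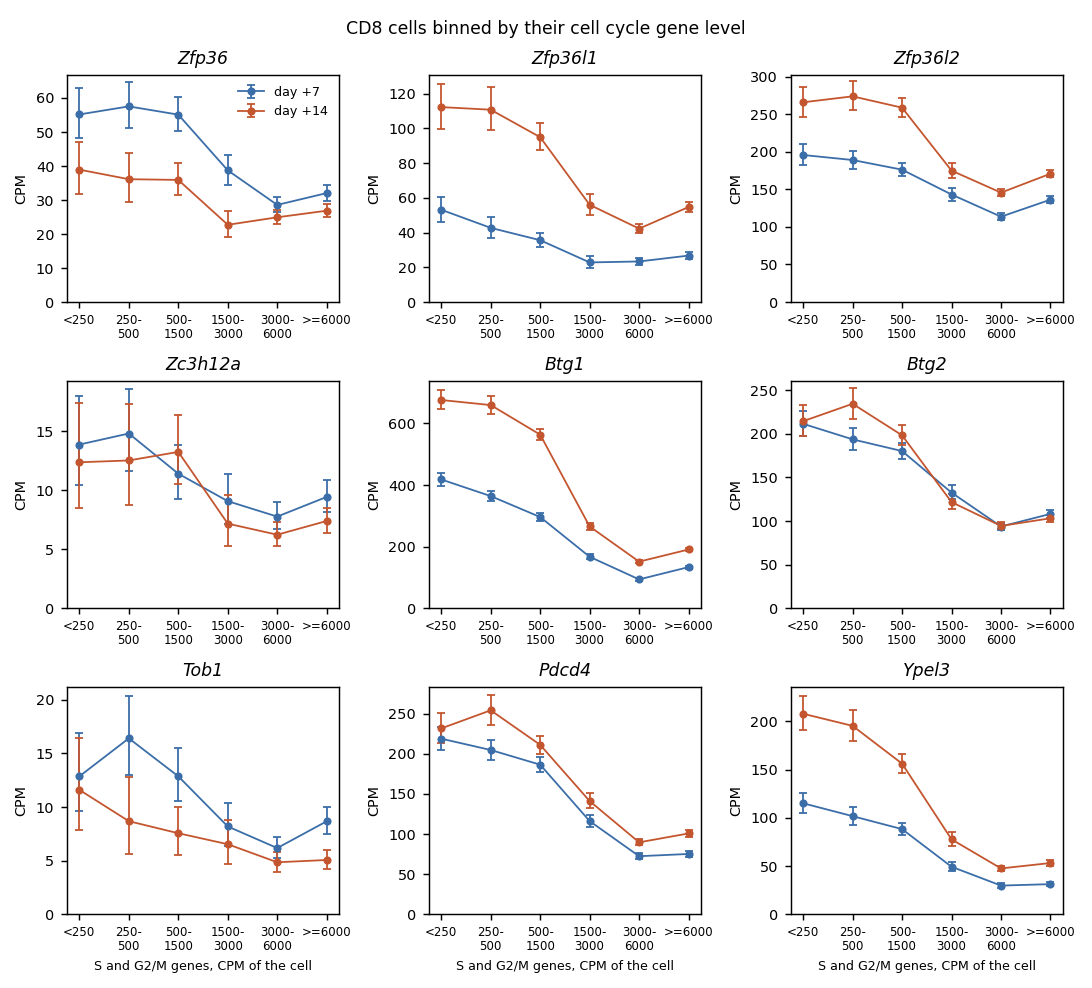
CPM of each gene (y axis, from 0) in CD8 cells grouped by the summed level of S and G2/M genes in the cell (x axis, CPM of the cell), at day +7 (blue) and day +14 (orange), with 95% counting intervals. Levels decline over the first 5 bins for Btg1 and Ypel3, from 418 to 93.5 CPM for Btg1 at day +7. The last bin stands above the fifth for every gene, at 133 CPM for Btg1 at day +7.

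CD4 cells gave the same picture for the quiescence genes from far fewer UMIs. Of the 9 genes, 8 were lower by 0.5 or more in cycling CD4 cells at day +7 and 7 at day +14, where 17.5% and 27.6% of all tested genes were that much lower. None was higher by 0.5, beside 20.4% and 22.2%. Tob1 was among the lower genes at both days but averaged under 10 CPM. Of the 8 members tested, 7 were lower at day +7 and 6 at day +14. The lower value of Zc3h12a at day +7 changed direction with cells thinned to 4000 UMIs. Its means were then 0.0660 UMIs in non-cycling and 0.0909 in cycling CD4 cells. Btg1 was at 390.1 CPM in non-cycling and 117 CPM in cycling CD4 cells at day +7, and at 817 and 179 CPM at day +14, with ratios of -1.73 (-1.94 to -1.53) and -2.19 (-2.35 to -2.03). Ypel3 had the lowest ratios of the 9, -2.14 (-2.57 to -1.71) and -2.33 (-2.64 to -2.03), from 107 to 24.2 CPM and from 246 to 48.9 CPM. The exceptions were RNA-binding proteins. Zfp36l2 was at 118 CPM in non-cycling and 114 CPM in cycling CD4 cells at day +7, a ratio of -0.05 (-0.34 to 0.24), and at 400.1 and 197 CPM at day +14, a ratio of -1.02. At day +14 the ratios of Zfp36 (-0.25, -0.86 to 0.38) and Zc3h12a (0.23, -0.75 to 1.31) had intervals on both sides of 0, with 34 and 12 UMIs in non-cycling cells. So did that of Tob1 (-0.51, -1.86 to 0.95), which counts among the 7 of the 9 genes lower at day +14 and rests on 8 UMIs there.

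Day +14 was then set against day +7, within and across gates. In T cells as a whole, 3 of the 9 genes were higher by 0.5 or more at day +14 and 1 was lower, where 14.5% of all 6883 tested genes were higher by that much and 3.31% lower. The median of all tested genes was itself 0.19, and scaling by the median ratio takes 0.22 off every value. Zfp36l1 had the largest ratio, from 32.9 to 70.0 CPM or 1.09 (1.02 to 1.16), which was above 98.3% of tested genes. Ypel3 at 0.71 (0.65 to 0.76) and Btg1 at 0.66 (0.63 to 0.69) were the other 2, and after median scaling they stood at 0.49 and 0.43. Tob1 was the lower gene, at -0.59 (-0.76 to -0.42). It was under 10 CPM, as was Zc3h12a, so 7 of the 9 genes were among those tested. Zfp36 was lower at -0.45 (-0.53 to -0.38), and after median scaling at -0.67. Zfp36l2 was at 0.45 (0.41 to 0.48), Btg2 at 0.01 (-0.03 to 0.05), Pdcd4 at 0.15 (0.11 to 0.19) and Zc3h12a at -0.21 (-0.35 to -0.06). Median scaling turns the sign of Btg2 and Pdcd4, to -0.21 and -0.07.

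The 3 ZFP36 family genes did not move together between the days. In non-cycling CD8 cells Zfp36l1 went from 47.5 CPM at day +7 to 112 CPM at day +14, while Zfp36 went from 56.5 CPM (51.7 to 61.6) to 37.5 CPM (32.6 to 42.9). In cycling CD8 cells Zfp36l1 went from 24.7 to 49.7 CPM and Zfp36 from 31.5 to 25.6 CPM. By summed UMIs, Zfp36l1 was higher and Zfp36 lower at day +14 in each of the 4 gates, with an interval that crossed 0 only for Zfp36 in cycling CD4 cells (-0.42, -0.87 to 0.04). There the mean of CPM per cell went the other way for Zfp36, from 38.2 at day +7 to 51.0 at day +14. The sum over the early response genes, a list of 16 transcripts that includes Fos, Jun and Egr1, was 1224 and 1293 CPM in T cells at the 2 days, and 1607 and 1686 CPM in non-cycling CD8 cells.

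Zfp36l2 showed its largest difference between the days in non-cycling CD4 cells, from 118 CPM (99.5 to 139) at day +7 to 400.1 CPM (364 to 439) at day +14, a ratio of 1.76 (1.49 to 2.04). In the other gates its ratio was 0.49 in non-cycling CD8, 0.34 in cycling CD8 and 0.79 in cycling CD4 cells. In that gate 30.3% of all 6934 tested genes were higher by 0.5 or more and 8.71% lower, and 97.6% of tested genes had a smaller ratio than Zfp36l2. The same gate had Zfp36 at 71.3 CPM (57.1 to 88.0) at day +7 and 30.2 CPM (20.9 to 42.2) at day +14, and Zc3h12a at 26.2 CPM from 32 UMIs and 10.7 CPM from 12 UMIs, a ratio of -1.30 that was 0.35 with cells thinned to 4000 UMIs. Cells of this gate were shallower at day +14, with a mean of 4572 UMIs against 7052 at day +7. Their summed myeloid markers were at 108 CPM against 40.2 CPM and their early response genes at 2599.9 against 2118 CPM, and the part of either in the result was not tested.

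Btg1 and Ypel3 were higher at day +14 in every gate. For Btg1 the log2 ratios were 0.78 in non-cycling CD8, 0.60 in cycling CD8, 1.07 in non-cycling CD4 and 0.61 in cycling CD4 cells. For Ypel3 they were 0.90, 0.69, 1.21 and 1.02 in the same order. Per cell, Btg1 was also higher, from 2.66 to 3.61 UMIs in non-cycling CD8 cells, where all UMIs per cell were fewer at day +14. With each cell thinned to 4000 UMIs and the gates set again on the thinned counts, non-cycling CD8 cells held a mean of 1.59 Btg1 UMIs at day +7 (SD between cells 1.75, 1010 cells) and 2.48 at day +14 (SD 2.20, 667 cells). Cycling CD8 cells so thinned held 0.586 (SD 0.952, 3374 cells) and 0.875 (SD 1.20, 3869 cells). Cells under that depth, 141 T cells at day +7 and 888 at day +14, were left out. Counted by gate, 3 of the 9 genes were higher by 0.5 or more at day +14 and 2 lower in non-cycling CD8 cells, where 22.9% of tested genes were higher and 5.13% lower. In cycling CD8 cells 3 were higher and 1 lower, beside 12.4% and 3.41%. The lower gene was Tob1, at 7.48 and 5.15 CPM and so not among the tested genes. Of the 7 members tested there, 0 were lower. In non-cycling CD4 cells 4 were higher and 3 lower, beside 30.3% and 8.71%. In cycling CD4 cells 4 were higher and none lower, beside 16.2% and 5.16%.

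**Figure D4:**
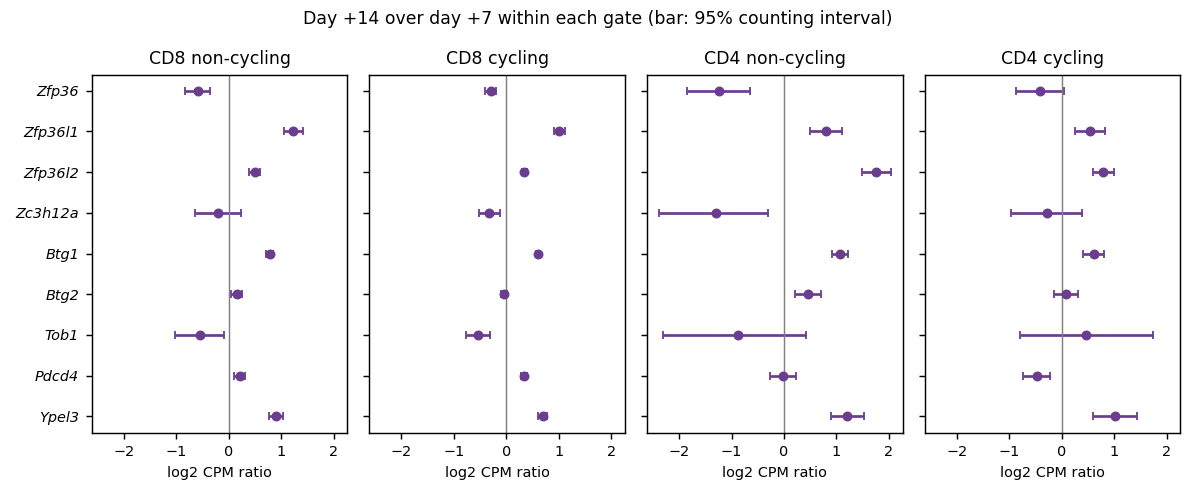
Log2 CPM ratio of day +14 over day +7 (x axis) for each gene within the 4 gates, with 95% counting intervals of 1 library per day. Zfp36l1, Zfp36l2, Btg1 and Ypel3 lie right of 0 in all 4 panels and Zfp36 lies left of 0 in all 4, with Zfp36l2 farthest right in non-cycling CD4 cells at 1.76.

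CD4 and CD8 cells differed mainly in the RNA-binding proteins. Zfp36l1 was higher in CD4 cells in every setting: 122 against 47.5 CPM in non-cycling and 59.3 against 24.7 CPM in cycling cells at day +7, and 213 against 112 CPM and 86.0 against 49.7 CPM at day +14. The log2 ratios were 1.36 (1.09 to 1.64), 1.27 (1.03 to 1.49), 0.94 (0.72 to 1.15) and 0.79 (0.59 to 0.98). Backgrounds for a ratio of 0.5 or more were 14.3%, 4.73%, 16.8% and 5.8% of tested genes. Zc3h12a was also higher in CD4 cells, at 0.87 and 0.82 at day +7 and 0.86 in cycling cells of day +14, but stood at -0.22 (-1.24 to 0.68) in non-cycling cells of day +14. With cells thinned to 4000 UMIs the ratio of 0.86 became -0.52, on the other side of 0. The value of -0.22 changed direction too, with means of 0.0841 UMIs in CD4 and 0.0480 in CD8 cells.

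Zfp36l2 was on either side of CD8 at the 2 days. In non-cycling cells it was lower in CD4 at day +7, at -0.70 (-0.96 to -0.46), and higher at day +14, at 0.57 (0.41 to 0.72). Btg1, Btg2, Pdcd4 and Ypel3 were between -0.02 and 0.08 in non-cycling cells at day +7, and between -0.14 and 0.31 at day +14. In cycling cells Pdcd4 was higher in CD4 at day +7 (0.33, 0.16 to 0.50) and lower at day +14 (-0.48, -0.69 to -0.28). Apart from Zfp36l2, only Tob1 was lower in CD4 by 0.5 or more, in cycling cells of day +7 (-1.04, from 11 UMIs) and in non-cycling cells of day +14 (-0.50, from 8 UMIs). With cells thinned to 4000 UMIs both values of Tob1 changed direction, to 0.046 and 0.52. Genes lower by 0.5 or more in CD4 were 6.57% of those tested in non-cycling and 3.94% in cycling cells at day +7, and 6.23% and 5.25% at day +14. Tob1 averaged under 10 CPM where it was that much lower and so was not among the genes tested there.

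CD8 cells with much Ccl3 and Ccl4, the chemokine transcripts of recently stimulated effector cells, were set against the rest. The chemokine-high gate asked for 2000 CPM of both together and held 164 cells at day +7 and 547 at day +14, against 5200 and 4339 cells under 500 CPM. Of the 9 genes, 4 were higher by 0.5 or more at both days: Zfp36l1, Zfp36, Btg1 and Zc3h12a. Of all genes averaging 10 CPM or more, 6.79% and 2.53% were. Zc3h12a reached 10 CPM at day +7 only through the chemokine-high gate and averaged less at day +14. Of the 7 members tested at day +14, 3 were higher. At day +7 none was lower by that much, with 6.2% of tested genes lower. At day +14 Tob1 was, although it was under 10 CPM and so not among the tested genes, of which 2.09% were lower.

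Zfp36l1 was the most different, at 80.5 CPM (chemokine-high) against 26.8 CPM at day +7 and 140.3 against 46.5 CPM at day +14, with ratios of 1.59 (1.33 to 1.84) and 1.59 (1.48 to 1.71). Zc3h12a was at 20.6 against 9.45 CPM and at 11.8 against 7.08 CPM, with ratios of 1.12 (0.59 to 1.61) and 0.74 (0.34 to 1.12). Zfp36 was at 54.3 against 35.1 CPM and at 42.6 against 23.9 CPM, which gave 0.63 (0.32 to 0.93) and 0.84 (0.63 to 1.04). Btg1 was at 262 against 167 CPM and at 348 against 231 CPM, which gave 0.65 and 0.59. The 4 genes that lay near 0 were Zfp36l2, Btg2, Pdcd4 and Ypel3, between -0.14 and 0.09 at both days. Tob1 was at 7.996 against 9.18 CPM from 14 UMIs at day +7 and at 3.36 against 6.01 CPM from 19 UMIs at day +14.

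The chemokine-high cells had less cell cycle RNA, with G2/M genes at 1775 against 2948 CPM at day +7 and at 2259.7 against 3307 CPM at day +14, and more of the early response genes, at 1908 against 1132 CPM and at 1805 against 1067 CPM. The contrast was therefore repeated within non-cycling CD8 cells, where 58 and 121 cells were chemokine-high. Zfp36l1 was again higher, at 128 against 44.4 CPM at day +7 and 214 against 96.0 CPM at day +14. Zc3h12a was at 1.12 (0.12 to 1.98) and 0.46 (-0.58 to 1.40), from 12 UMIs at each day. Zfp36 was at 45.0 against 52.8 CPM at day +7, a ratio of -0.23 with an interval on both sides of 0, and at 1.04 (0.49 to 1.57) at day +14. Btg1 was at 0.15 (-0.08 to 0.38) and 0.36 (0.22 to 0.50). Btg2 was lower in chemokine-high cells there, at -0.72 (-1.15 to -0.31) and -0.39 (-0.68 to -0.12), as was Pdcd4 at -0.62 (-1.03 to -0.24) and -0.29 (-0.56 to -0.04). By 0.5 or more, 2 of the 9 were higher and 4 lower at day +7, and 2 higher and 1 lower at day +14. The lower gene of day +14 was Tob1, with 4 UMIs in chemokine-high cells. It averaged under 10 CPM and so was not among the tested genes. The backgrounds in this contrast were 20% of tested genes higher and 15.1% lower at day +7, and 12.2% and 8.94% at day +14.

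**Figure D5:**
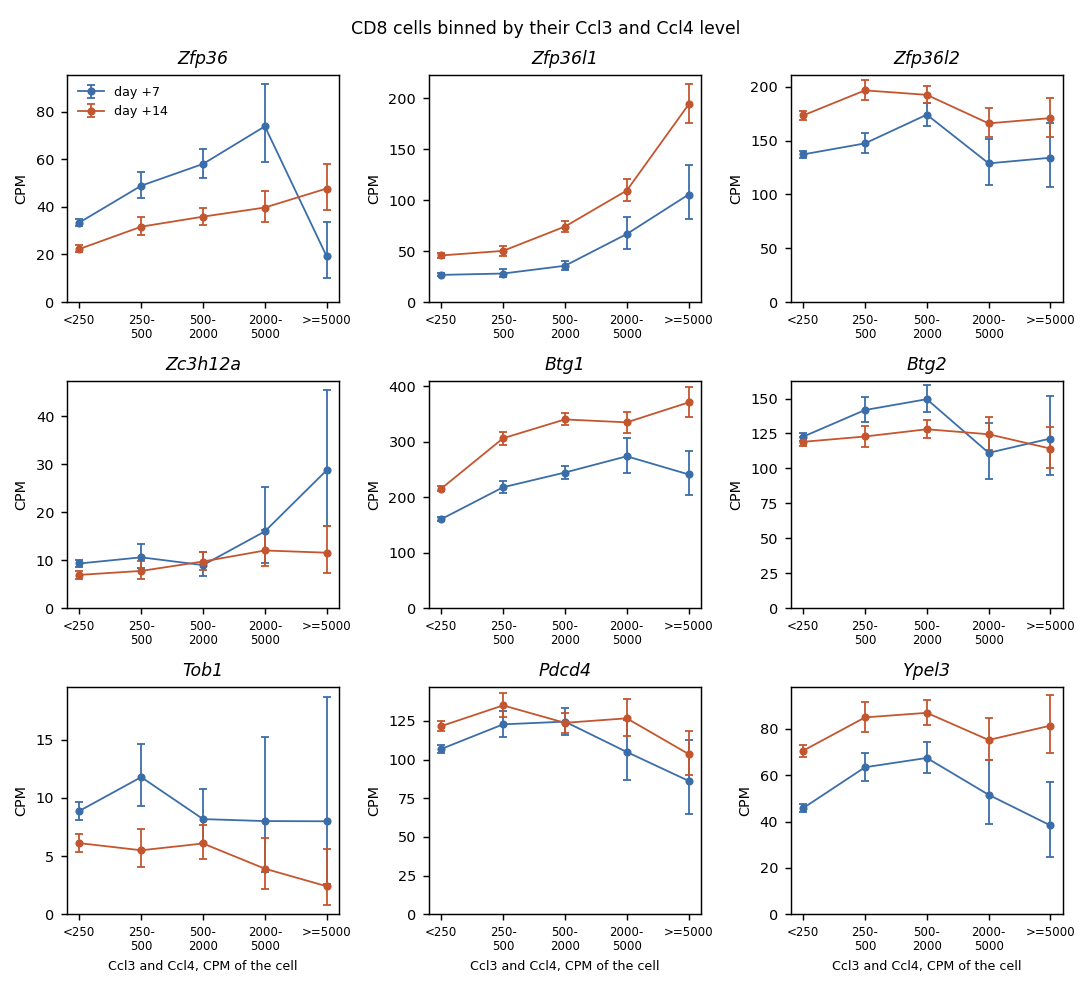
CPM of each gene (y axis, from 0) in CD8 cells grouped by the summed level of Ccl3 and Ccl4 in the cell (x axis, CPM of the cell), at day +7 (blue) and day +14 (orange), with 95% counting intervals. Zfp36l1 climbs over the bins at both days, from 45.7 to 194 CPM at day +14, while Zfp36 at day +7 reaches 73.8 CPM in the fourth bin and is at 19.2 CPM in the last, which holds 59 cells.

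Over the bins of the chemokine level, Zfp36l1 went from 26.6 CPM in CD8 cells under 250 CPM of chemokine to 105 CPM in cells above 5000 at day +7, and from 45.7 to 194 CPM at day +14. Zfp36 had a different shape at day +7, from 33.4 CPM in the lowest bin to 73.8 CPM between 2000 and 5000 and 19.2 CPM (9.90 to 33.5, from 12 UMIs) above 5000. At day +14 it went from 22.3 to 47.7 CPM with no such turn.

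Transcripts known as targets of the ZFP36 family or of Regnase-1 were read in the same cells. The 16 target genes together, with no limit on low levels, took 1638 CPM in chemokine-high and 423 CPM in chemokine-low CD8 cells at day +7, and 965 and 374 CPM at day +14. Tnf, Csf2 and Irf4 reached 10 CPM at day +7 only through the chemokine-high gate, so no count of higher genes is given, and Ifng took most of the sum in chemokine-high cells. Ifng was at 892 CPM in chemokine-high and 144 CPM in chemokine-low cells at day +7, and at 492 and 104 CPM at day +14. Tnf was at 27.4 against 2.75 CPM at day +7 and at 19.99 against 4.34 CPM at day +14. Nr4a1, an early response gene, had a log2 ratio of 2.77 at both days.

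Other genes of the decay machinery were read in the same contrast of cycling and non-cycling CD8 cells. The counts cover genes averaging 10 CPM or more over both gates, which a gene can reach through the gate where it is high, and the shares of all tested genes stand at 12% lower and 21.3% higher at day +7 and at 16.3% and 23.3% at day +14. Of the 12 genes of the CCR4-NOT deadenylase, which the BTG/TOB proteins bind, 11 were tested. None of the 11 was lower by 0.5 or more at either day, and 3 were higher at day +7 and 1 at day +14, counts that are near those shares. Cnot6, a catalytic subunit, was at 56.2 CPM in cycling and 33.97 CPM in non-cycling cells at day +7. Cnot6l, which has most UMIs of the tested catalytic subunits, was at 85.1 and 113 CPM in the same cells. Of the decapping and decay genes 1 of 10 was lower at day +7 and 2 of 11 at day +14, again near the shares of all tested genes, among them Dcp1b at -1.31 and -0.93.

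Of 13 other genes known from the resting state, 8 were tested. By 0.5 or more, 5 of these were lower in cycling CD8 cells at day +7, beside 12% of all tested genes, and 6 at day +14, beside 16.3%. Txnip, which binds thioredoxin and limits glucose uptake, was at -1.33 and -1.37. Slfn2, whose loss is known to break T cell quiescence, was at -1.14 and -1.12. Klf2, a factor that maintains naive T cell homing, was at -0.51 at day +7 and 0.06 at day +14. Of 8 eIF4 genes, all tested, 4 were higher by 0.5 or more at day +7, beside 21.3% of all tested genes, and 5 at day +14, beside 23.3%. Eif4a1, which encodes the helicase held by PDCD4, was at 522 CPM in cycling and 301 CPM in non-cycling CD8 cells at day +7 and at 629.9 and 308 CPM at day +14. By share of UMIs this was opposite to Pdcd4 in both libraries. By UMIs per cell Pdcd4 was lower in cycling CD8 cells only at day +7, at 1.22 against 1.45. At day +14 it was at 1.40 against 1.32.

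Among paralogues and relatives, 7 of 14 passed 10 CPM in cycling and non-cycling CD8 cells, and 2 were lower by 0.5 or more at day +7 and 3 at day +14, beside 12% and 16.3% of all tested genes. Ypel5, a relative of Ypel3, was at 18.1 CPM in cycling and 36.2 CPM in non-cycling CD8 cells at day +7 and at 16.9 and 35.3 CPM at day +14. Btg3, a relative of Btg1, was at 22.7 CPM in both cycling and non-cycling CD8 cells of day +7, and in chemokine-high cells its ratios were 1.09 and 1.03. Rc3h1, which encodes the RNA-binding protein Roquin-1, was at -0.32 and -0.26 in cycling cells. For the day contrast in T cells 4 of 7 relatives tested were higher by 0.5 or more and none lower, beside 14.5% and 3.31% of all tested genes, whose median was 0.19. Rc3h2 was at 1.06 and Zc3h12d at 0.86.

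The levels of the 9 genes over 12 groups of cells (day, CD4 or CD8, cycling or not, chemokine-high or not, at least 50 cells each) were last compared with those of 4978 genes at a mean of 20 CPM or more. These groups come from 2 libraries and share their depth and gates, so the Pearson r of log2(CPM + 1) is a description. Btg1 was most like Sat1 (0.990), Btg2 most like Ypel5 (0.990), Ypel3 most like Pbxip1 (0.988) and Pdcd4 most like Jun (0.969). Zfp36l1 was most like Nfatc1 (0.936), Rest (0.923) and Dusp2 (0.920). Zfp36l2 was most like Ifi27 (0.957) and Irf1 (0.952), Zfp36 most like Ino80b (0.878) and Ppp1r15a (0.856), Tob1 most like Psenen (0.900) and Zc3h12a most like Naca (0.894). Tob1 and Zc3h12a were themselves under 20 CPM in T cells, so their values rest on few counts. In non-cycling chemokine-high CD8 cells of day +14 they had 4 and 12 UMIs. Among the 9 themselves Btg1 and Ypel3 had the highest r, 0.969, followed by Btg2 and Ypel3 at 0.932 and Btg2 and Pdcd4 at 0.920. Zfp36 had its highest r with Zc3h12a, 0.740, and was at -0.18 with Zfp36l2.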

How the data were processed

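The authors deposited filtered matrices of whole UMI counts per gene and cell barcode for each library. The submitters' processing notes name Cell Ranger 6.1.2 and mm10, and Feature Barcode counts were not analysed here. Cells were filtered as in the study (500 to 7500 genes, at most 15% mitochondrial UMIs). Doublets were left in: Scrublet with its automatic threshold called almost none, and leaving out the highest scores was an alternative. Gates used fixed UMI and CPM limits, with no clustering. The members, gene lists and limits were chosen with earlier results of these data known.

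The UMIs of each gate were added up and divided by its total to give CPM, with exact Poisson intervals. Log2 ratios had exact conditional binomial intervals. Both are at 95% and cover counting error only. A ratio counted as called from 0.5 on the log2 scale, and backgrounds cover genes averaging 10 CPM or more. There was no test, since each day had 1 library. All members were named. Of the other lists, the 3 genes with most UMIs and the 2 with the largest ratio in either direction could be named; genes named beyond that were chosen after their values were seen.

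Alternatives were median ratio scaling, mean CPM per cell, other cell filters and gate limits, and cells thinned to 4000 UMIs with the gates set again on the thinned counts. The ratio step was tested on simulated data for day +14 over day +7 in T cells: over 6612 genes, all 200 changed genes had the right direction, 197 of them were recovered to 0.1 on the log2 scale, and 95.6% of intervals held the simulated ratio. Gene positions and 3′ untranslated regions came from GENCODE M21 on GRCm38, the same build as mm10. Python 3.11.15, numpy 2.4.6, scipy 1.17.1, pandas 2.3.3, scanpy 1.11.5 and matplotlib 3.10.9 were used.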

Additional observations from a re-analysis of the deposited data

Results flagged for a closer look

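Pdcd4, the restraint on eIF4A, differed in direction of its CPM ratio between gates from day +7 to day +14. Its log2 CPM ratio was 0.21 (95% counting interval 0.10 to 0.31) in non-cycling CD8 cells and 0.33 (0.28 to 0.39) in cycling CD8 cells, and -0.48 (-0.74 to -0.21) in cycling CD4 cells, where it went from 101 CPM at day +7 to 72.5 CPM at day +14. In non-cycling CD4 cells it was -0.02 (-0.27 to 0.24). The median of all tested genes was itself 0.17 in non-cycling and 0.16 in cycling CD8 cells, and 0.13 in cycling CD4 cells. Scaling by the median ratio takes 0.15, 0.19 and 0.08 off the values of these gates. Per cell, Pdcd4 went from 1.45 to 1.32 UMIs in non-cycling CD8 cells and from 1.22 to 1.40 in cycling CD8 cells. The difference between the gates was not tested, and each day is 1 library.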

How the results depend on the processing

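No paired analysis was possible because each day had 1 library and the labels give no replicate number that joins the days. All values here are log2 CPM ratios or counts of the 9 genes at 0.5 or more. Depth limits Tob1 and Zc3h12a most. Every ratio of 0.5 or more in either direction that changed sign under thinning to 4000 UMIs was of these genes in CD4 cells. The thinned values were, for day +14 over day +7 in non-cycling CD4 cells, 0.25 (Tob1) and 0.35 (Zc3h12a), for Zc3h12a in cycling over non-cycling CD4 cells at day +7 0.46, and for CD4 over CD8 0.046 (Tob1, cycling, day +7), 0.52 (Tob1, non-cycling, day +14) and -0.52 (Zc3h12a, cycling, day +14). Smaller ratios also changed sign. Among them were Zc3h12a in cycling CD8 cells and Tob1 in cycling CD4 cells between the days, and Btg2 in CD4 over CD8 cycling cells of day +7. Thinning leaves fewer UMIs and cells and sets the gates again on the thinned counts; no other cause was tested. Zfp36 in chemokine-high CD8 cells of day +7 turned to -0.87 with the limit at 5000 CPM and to -0.23 within non-cycling cells, and the cause was not tested.

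For day +14 over day +7 in T cells, median ratio scaling gave 1 gene higher and 2 lower, the mean of CPM per cell gave 0 lower, and the mean of the 4 gates gave 2 lower. In non-cycling CD8 cells the mean of CPM per cell and the cycling limits of 3000 and 250 CPM each gave 1 lower. In cycling CD8 cells median ratio scaling gave 2 lower and the mean of CPM per cell 0. In non-cycling CD4 cells thinning gave 1 lower. In cycling CD4 cells median ratio scaling, the other cycling limits and thinning each gave 1 lower, and CD4 and CD8 by 2 UMIs gave 2 higher and 1 lower. For cycling over non-cycling CD4 cells at day +14, the mean of CPM per cell and thinning each gave 1 higher. For CD4 over CD8, thinning gave 1 higher in non-cycling cells and 0 lower in cycling cells of day +7, and 1 higher and 1 lower in cycling cells of day +14. Gates by 2 UMIs gave 2 lower in cycling cells of day +7, 2 lower in non-cycling and 1 lower in cycling cells of day +14, and median ratio scaling gave 1 higher in non-cycling cells of day +14. For chemokine-high CD8 cells the limit of 5000 CPM gave 1 lower at day +7, and non-cycling cells gave 2 higher and 4 lower at day +7 and 2 higher at day +14. With no limit on low genes, 27.8% of all genes were higher and 13.1% lower at day +14 in T cells.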

Other observations

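Outside the T cell gate, cells with at least 1% of their UMIs on the myeloid marker list had a different order of the 9 genes. There were 62 such cells at day +7 and 93 at day +14. Zfp36 was at 61.6 CPM (45.6 to 81.4) and 100.4 CPM (81.2 to 123) there, against 38.3 and 28.0 CPM in T cells. Pdcd4 was at 27.6 CPM (17.3 to 41.9) and 50.7 CPM (37.4 to 67.3), against 112 and 124 CPM in T cells. Btg1 was again the most abundant, at 165 and 286 CPM. Zfp36l1 was at 32.7 and 29.6 CPM, from 26 and 28 UMIs, and Zc3h12a at 1.26 and 10.6 CPM, from 1 and 10 UMIs. At day +7 Zfp36, Ypel3 and Btg2 were at 61.6, 61.6 and 59.1 CPM with overlapping intervals. All kept cells outside the T cell gate together held T cell receptor complex transcripts at 571 and 1927 CPM, against 5902 and 7613 CPM inside it. The part of T cell RNA in these values was not tested.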
